A study of Mus musculus with 27 samples.

Results

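The immunity-related GTPases (IRG) and the guanylate-binding proteins (GBP) are 2 families of interferon-induced GTPases, described here across hepatocytes of 9 inbred mouse strains. The members were named by symbol: Irgm1, Irgm2, Igtp, Iigp1, Tgtp1 and Ifi47 of the IRG family and Gbp2, Gbp3, Gbp6 and Gbp7 of the GBP family. A row of the count table was a member where its Ensembl identifier carried that symbol in the GENCODE M21 annotation. This found 9 of the 10 listed genes among 43346 genes in the table. Gbp6 had no row under its M21 identifier and is not analysed here. All 9 members found passed the filter on low counts.

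Both families belong to cell-autonomous immunity, the defence that an infected cell mounts inside its own cytoplasm. Interferons bind receptors that activate transcription factors, and these switch on the IRG and GBP genes through short response elements near the transcription start. The effector IRG proteins settle on the vacuole that encloses a microbe such as Toxoplasma gondii or Chlamydia and break it open. The regulatory IRG proteins of the Irgm group keep the effectors inactive on the cell's own membranes. GBP proteins coat the same vacuoles and the surface of bacteria and are linked to autophagy proteins and to inflammasomes. In the mouse the IRG members lie on chromosomes 11 and 18, and Gbp2, Gbp3 and Gbp7 lie in a cluster on chromosome 3.

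Polyadenylated RNA of hepatocytes, the main cell type of the liver, was sequenced from female mice at 12 weeks of age, with 3 libraries for each strain and 27 in all. The groups were 3 wild-derived strains (WSB/EiJ, PWK/PhJ and CAST/EiJ) and 6 classical laboratory strains (A/J, NOD/ShiLtJ, DBA/2J, C57BL/6J, NZO/HlLtJ and 129S1/SvImJ). No group carried a treatment or an infection in the labels, so the levels are those of mice not described as infected. The labels name the libraries as biological replicates and do not say which mice they came from, so p-values measure the spread between these libraries. C57BL/6J, the strain of the reference genome, was used as the common comparison.

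Library totals ran from 17015956 to 35078511 estimated counts, and 1 count was worth 0.0253 to 0.0516 CPM, the unit of level used throughout, which scales counts to a common library size after TMM normalization. All 8 hepatocyte markers examined, among them Alb and Ttr, passed the filter on low counts and summed to between 122300 and 364100 CPM, so the labelled cell type was present in all libraries. Markers of other liver cells were also present: 10 Kupffer cell (liver macrophage) genes summed to 33.4 to 414.3 CPM and 9 endothelial genes to 48.2 to 606.4 CPM. Of 10 T and NK cell genes, 8 fell below the filter, and the list summed to 0.207 to 4.26 CPM. In bulk samples, fewer cells of a type and less RNA per cell cannot be told apart.

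The coding bases of the nucleotide-binding loop show the division of the IRG family into regulators and effectors. Each stretch below holds the 24 bases that encode the phosphate-binding loop, read from the longest open reading frame of the longest coding M21 transcript, with the codon before the loop's last serine in capitals. The annotation is that of C57BL/6J, and no strain's own sequence was used.
Irgm1: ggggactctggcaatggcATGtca
Irgm2: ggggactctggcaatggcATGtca
Igtp: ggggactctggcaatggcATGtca
Tgtp1: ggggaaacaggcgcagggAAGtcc
Ifi47: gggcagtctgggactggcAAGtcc
Gbp2: ggcctctaccgcacaggcAAAtcc
Gbp3: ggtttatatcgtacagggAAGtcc
Gbp7: ggactataccgtacgggaAAAtcc
In Irgm1, Irgm2 and Igtp the capitals spell ATG, the methionine codon, at codons 89, 89 and 97 of their reading frames, and the 3 stretches are identical. The methionine sets the regulators apart from the other members. The effector genes Tgtp1 and Ifi47 have AAG, a lysine codon, at codons 69 and 87, and Gbp2, Gbp3 and Gbp7 have a lysine codon at codons 51, 45 and 51. Iigp1 also has a lysine codon, at codon 82. The lysine is the form found in most GTPases.

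Promoter sequences are shown because interferon response elements are the sites through which these genes are known to be switched on. Promoters of 8 of the 9 members were taken from RefSeq (GRCm38.p6), each 250 bases before to 50 after the transcription start, and Iigp1 was left out. An interferon-stimulated response element was searched as GAAA, any 2 bases and GAAA again, or, for the other strand, TTTC, any 2 bases and TTTC again, and a gamma-activated site as TTCNNNGAA, which reads the same on both strands. Matches were allowed to overlap. Of the 32851 promoters of that length examined, 3.44% held the first, 8.3% the second and 0.454% both. Of the 27025 genes with a promoter examined, 3.99% held the first and 9.55% the second in at least 1 promoter. The 8 members had 9 promoters, since Gbp3 had a pair, one of which held neither. Of these 8 genes, 7 held the first and 4 the second. Ifi47 held neither within this window.

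The windows below are written 5′ to 3′ on the strand of the gene, with the matches in capitals. Those of Irgm2 (chr11:58214887-58214937, plus strand), Igtp (chr11:58199496-58199546, plus), Tgtp1 (chr11:48992299-48992349, minus), and its neighbour Tgtp2 (chr11:49064258-49064308, minus) each hold a gamma-activated site followed by an interferon-stimulated response element. Irgm1 (chr11:48871421-48871465, minus) and Gbp3 (chr3:142559984-142560029, plus) each hold overlapping copies of the response element, Gbp2 (chr3:142620589-142620628, plus) holds a single copy, and Gbp7 (chr3:142530215-142530307, plus) holds a pair of gamma-activated sites and a response element.
Irgm2: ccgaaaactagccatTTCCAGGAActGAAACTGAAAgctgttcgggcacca
Igtp: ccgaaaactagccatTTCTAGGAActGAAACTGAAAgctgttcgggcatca
Tgtp1: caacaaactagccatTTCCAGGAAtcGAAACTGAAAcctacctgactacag
Tgtp2: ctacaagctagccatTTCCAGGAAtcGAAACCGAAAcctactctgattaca
Irgm1: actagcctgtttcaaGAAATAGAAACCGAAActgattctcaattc
Gbp2: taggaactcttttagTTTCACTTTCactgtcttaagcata
Gbp3: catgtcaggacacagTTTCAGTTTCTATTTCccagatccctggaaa
Gbp7: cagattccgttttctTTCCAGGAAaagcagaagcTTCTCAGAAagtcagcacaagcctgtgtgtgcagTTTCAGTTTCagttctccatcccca
In Irgm2, Igtp and Tgtp1 the last base of the element lay 55, 25 and 68 bases before the start. All matches lay before the RefSeq start. The Irgm1 window lies within an exon of a non-coding M21 transcript, 27 bases of the Gbp2 window and 4 of the Gbp3 window lie in an M21 exon, and the other windows lie in none. The RefSeq starts of Irgm1, Irgm2, Tgtp1, Gbp2 and Gbp3 lie inside the M21 genes. A match of letters is a description, and binding was not measured.

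The members differ in how well their reads can be told apart from those of related genes. A non-whole estimated count (more than 0.001 from a whole number) marks a library in which reads were divided between sequences, and 10.8% of all values in the table were of this kind. Irgm1 had 1 non-whole library of 27, Iigp1 3, Ifi47 5 and Gbp2 11. Gbp3 and Gbp7 had 20 each, Tgtp1 25, and Irgm2 and Igtp 27 each. Tgtp1 and its copy Tgtp2 are the extreme case, because 91.4% of the 50-base stretches of the longest coding Tgtp1 transcript also occur in another gene, 89.4% in Tgtp2. For Igtp the share was 12.3%, all of it in Irgm2, and for Gbp7 12.8%, mostly in the predicted gene Gm43802. It was 7.3% for Irgm2, 4.79% for Gbp3, 3.71% for Ifi47 (shared with Olfr56), 3.19% for Iigp1, 2.07% for Gbp2 and 0.814% for Irgm1. The levels of Tgtp1, and less so those of Irgm2, Igtp and Gbp7, are therefore uncertain as levels of single genes.

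By position on GRCm38, Irgm1 (ENSMUSG00000046879) spans chr11:48861968-48871683 on the minus strand. Tgtp1 (ENSMUSG00000078922, chr11:48985327-48994172, minus strand) and Ifi47 (ENSMUSG00000078920, chr11:49076587-49096974, plus strand) lie beside it. Igtp (ENSMUSG00000078853, chr11:58199556-58207591) and Irgm2 (ENSMUSG00000069874, chr11:58199618-58222782) overlap on the plus strand of the same chromosome. Gbp7 (ENSMUSG00000040253, chr3:142530342-142550149), Gbp3 (ENSMUSG00000028268, chr3:142560026-142573209) and Gbp2 (ENSMUSG00000028270, chr3:142620602-142638008) follow each other on the plus strand. Iigp1 (ENSMUSG00000054072) lies on chromosome 18.

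All 9 members were detected in hepatocytes of most strains, and the IRG genes were the more abundant family. Per kilobase of the longest coding transcript, and averaged over the 27 libraries, Iigp1 stood at 60.8 CPM per kb, Igtp at 34.3, Irgm1 at 20.1, Irgm2 at 10.7 and Ifi47 at 8.38. The 3 GBP genes stood at 3.1 (Gbp7), 2.08 (Gbp3) and 1.63 CPM per kb (Gbp2), and Tgtp1 at 2.75. On this length-scaled average, each IRG member other than Tgtp1 lay above each GBP member. The order did not hold in each strain. In CAST/EiJ, Iigp1 had a lower mean (0.507 CPM) than Gbp2 (0.724 CPM), whose transcript is shorter. In C57BL/6J, Tgtp1 (2.2 CPM per kb) lay below Gbp2 (2.25), Gbp3 (3.29) and Gbp7 (4.04).

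Levels differed widely between strains for most members, and furthest for Iigp1, Tgtp1 and Gbp7. The distance between the highest and the lowest strain mean, on the scale of log2(CPM + 0.5), was 8.16 for Iigp1, 5.46 for Tgtp1, 4.93 for Gbp7, 3.30 for Gbp3, 3.12 for Gbp2, 2.75 for Igtp, 2.34 for Ifi47, 2.18 for Irgm2 and 1.45 for Irgm1. Over all 14482 genes tested the median distance was 0.945. A distance of at least 3 was found for 5 members, beside 6.33% of all genes, and one of at least 5 for 2 members, Iigp1 and Tgtp1, beside 1.91%. Without replicate 2 of A/J, Gbp2 (2.34) and Tgtp1 (4.80) fell short, leaving 4 members at 3 or more and 1 at 5 or more. Of all genes tested, 0.193% had a larger distance than Iigp1, 1.47% than Tgtp1, 2.02% than Gbp7 and 25.4% than Irgm1. Because the families were chosen as variable between strains, these counts and shares are a description of the members only.

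When all strains were compared at once with edgeR (quasi-likelihood F), 9 of 9 members passed an adjusted p of 0.05, beside 74.2% of all genes tested. The families were chosen as variable between strains, so this count is a description. The adjusted p ran from 8.95e-13 for Iigp1 to 0.00304 for Irgm2.

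**Figure D1:**
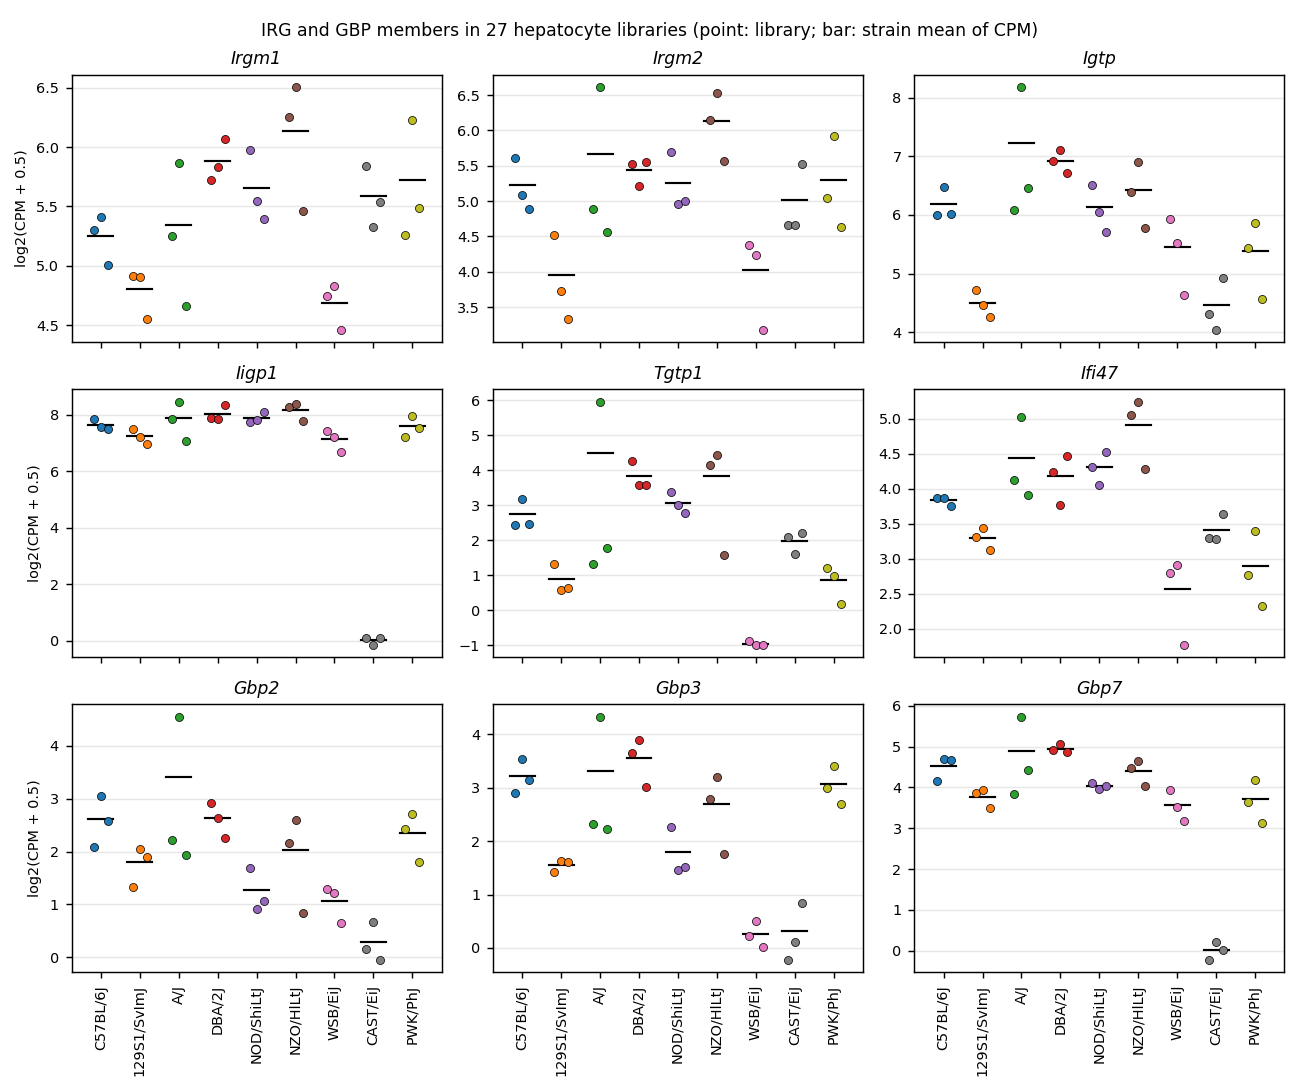
Level of each of the 9 members in the 27 libraries, as log2(CPM + 0.5) on axes that differ between panels; each point is a library and each bar the strain mean of CPM. CAST/EiJ sits far below all other strains for Iigp1 and Gbp7, WSB/EiJ for Tgtp1, and both for Gbp3, while replicate 2 of A/J stands above the other A/J libraries in each panel.

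The 3 regulatory IRG genes were all detected in every library, and each had its own order of strains. Irgm1, the regulator best known for the susceptibility to mycobacteria of mice that lack it, was highest in NZO/HlLtJ at 69.9 ± 24 CPM (mean ± SD, n = 3, as for all such values below). It was lowest in WSB/EiJ at 25.2 ± 3.35, a 2.77-fold distance, the smallest of the 9. By library, Irgm1 measured 75.6, 90.5 and 43.6 CPM in NZO/HlLtJ, 52.3, 56.5 and 66.5 in DBA/2J, and 37.9, 74.5 and 44.2 in PWK/PhJ. It measured 62.4, 46.1 and 41.4 CPM in NOD/ShiLtJ, 56.9, 39.6 and 46 in CAST/EiJ, and 37.6, 57.8 and 24.8 in A/J. The lowest 3 strains held 38.9, 42 and 31.7 CPM in C57BL/6J, 29.7, 29.5 and 22.9 in 129S1/SvImJ, and 26.3, 27.9 and 21.4 in WSB/EiJ. All libraries of 129S1/SvImJ and WSB/EiJ lay below all those of C57BL/6J. The other 7 of the 8 neighbouring pairs in the order of strain means overlapped in their libraries. Such separations of libraries, here and below, are descriptions, and their share over all genes was not counted. Those against C57BL/6J reuse its 3 libraries. A separation was not always a call in the tests below, where Irgm1 was called in neither 129S1/SvImJ nor WSB/EiJ.

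Irgm2, a regulator that overlaps Igtp in the genome, was also highest in NZO/HlLtJ, at 69.6 ± 22.5 CPM, and lowest in 129S1/SvImJ, at 14.9 ± 6.74, a 4.66-fold distance. The 3 libraries measured 70.3, 91.7 and 46.7 CPM in NZO/HlLtJ, 29.2, 97.7 and 23.2 in A/J, and 45.4, 36.5 and 46.3 in DBA/2J. Intermediate strains held 32.5, 60.1 and 24.3 CPM in PWK/PhJ, 51.3, 30.5 and 31.6 in NOD/ShiLtJ, 48.5, 33.5 and 29 in C57BL/6J, and 24.8, 24.8 and 45.7 in CAST/EiJ. The low strains held 20.3, 18.4 and 8.52 CPM in WSB/EiJ and 22.5, 12.7 and 9.55 in 129S1/SvImJ. All libraries of WSB/EiJ and 129S1/SvImJ lay below all libraries of the other 7 strains, although the highest of them, at 22.5 CPM in 129S1/SvImJ, came close to the lowest A/J library at 23.2. Between CAST/EiJ and WSB/EiJ the libraries did not overlap, and the other 7 neighbouring pairs overlapped.

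Igtp, the regulator also called Irgm3, which is needed for resistance to Toxoplasma in mice, had the highest mean in A/J at 148 ± 124 CPM and the lowest in CAST/EiJ at 21.7 ± 7.35. That 6.84-fold distance became 5.57-fold, with DBA/2J highest, when replicate 2 of A/J was left out. The libraries measured 67.5, 291 and 87.1 CPM in A/J, 120.1, 138 and 105 in DBA/2J, and 83.8, 119 and 54.7 in NZO/HlLtJ. The middle of the order held 63.7, 88.5 and 64.2 CPM in C57BL/6J, 90.5, 65.9 and 52 in NOD/ShiLtJ, 60.4, 45.6 and 24.5 in WSB/EiJ, and 42.6, 57.5 and 23.1 in PWK/PhJ. The lowest strains held 26, 21.6 and 18.6 CPM in 129S1/SvImJ and 19.2, 15.9 and 29.9 in CAST/EiJ. All 8 neighbouring pairs overlapped, but DBA/2J lay wholly above C57BL/6J, and WSB/EiJ, PWK/PhJ, 129S1/SvImJ and CAST/EiJ wholly below it.

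Among the effector IRG genes, 2 were nearly missing from a single strain. Iigp1, also called Irga6, an effector that is among the first to load on the Toxoplasma vacuole, measured 139.5 to 288.1 CPM as a strain mean in 8 strains and 0.507 ± 0.0992 CPM in CAST/EiJ. The CAST/EiJ libraries held 19, 13 and 11 counts, or 0.561, 0.393 and 0.567 CPM, against 307, 336 and 221 CPM in NZO/HlLtJ and 169.7, 147 and 102 in WSB/EiJ. The lowest of the other 24 libraries, a WSB/EiJ one at 101.6 CPM, lay far above CAST/EiJ. From NZO/HlLtJ to CAST/EiJ the distance was 568-fold, and within the other 8 strains all neighbours in the order overlapped. The remaining strains held 234, 233 and 322 CPM in DBA/2J, 229, 353 and 133 in A/J, and 216, 223 and 271 in NOD/ShiLtJ. They held 229.8, 187 and 181 CPM in C57BL/6J, 148, 248 and 186 in PWK/PhJ, and 182, 147 and 123 in 129S1/SvImJ.

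Tgtp1, also called Irgb6, a vacuole-directed effector, was close to zero in WSB/EiJ, whose libraries held 0.9, 0 and 0 estimated counts. Elsewhere Tgtp1 measured 2.01, 61.7 and 2.92 CPM in A/J, 18.6, 11.4 and 11.4 in DBA/2J, and 17.1, 21.3 and 2.5 in NZO/HlLtJ. It held 9.8, 7.52 and 6.34 CPM in NOD/ShiLtJ, 4.92, 8.62 and 5.05 in C57BL/6J, and 3.72, 2.54 and 4.12 in CAST/EiJ. At the low end it held 2.02, 1 and 1.04 CPM in 129S1/SvImJ and 1.8, 1.48 and 0.631 in PWK/PhJ. The highest mean, 22.2 ± 34.2 CPM in A/J, rested on replicate 2: without it the A/J mean was 2.47 CPM and DBA/2J was highest at 13.8 ± 4.15. Against 3 counts per library in WSB/EiJ, the distance was at least 173-fold with that library and at least 108-fold without it. C57BL/6J lay wholly above CAST/EiJ, CAST/EiJ wholly above 129S1/SvImJ, and PWK/PhJ wholly above WSB/EiJ.

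Because reads of Tgtp1 and Tgtp2 cannot be told apart over most of their length, the pair was also summed. The sum was highest in A/J, at 25.6 ± 37.8 CPM, and next in NZO/HlLtJ, at 22.2 ± 15.7. Without replicate 2, which held 69.2 CPM, the A/J mean was 3.81 CPM and NZO/HlLtJ was highest. The sum was lowest in WSB/EiJ at 0.196 ± 0.0899. PWK/PhJ, low for Tgtp1 alone, held 8.72 ± 4.72 CPM in the sum, close to C57BL/6J at 8.55 ± 2.91. Tgtp2 itself measured 5.51, 12.5 and 4.25 CPM in PWK/PhJ and 10.8, 12.9 and 1.99 in NZO/HlLtJ, and 0 in all 3 CAST/EiJ libraries. WSB/EiJ was therefore lowest for Tgtp1 and for the pair, while the sum did not place PWK/PhJ below C57BL/6J.

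Ifi47, also called Irgd, is an IRG gene induced by interferon gamma. It was highest in NZO/HlLtJ at 29.7 ± 9.56 CPM and lowest in WSB/EiJ at 5.46 ± 2.23, a 5.45-fold distance. Its libraries measured 32.7, 37.5 and 19.1 CPM in NZO/HlLtJ, 16.9, 32 and 14.6 in A/J, 19.4, 16.2 and 22.5 in NOD/ShiLtJ, and 18.4, 13.1 and 21.7 in DBA/2J. C57BL/6J held 14.2, 14.1 and 13. Below it stood 9.37, 9.24 and 11.9 CPM in CAST/EiJ, 9.43, 10.3 and 8.22 in 129S1/SvImJ, 6.31, 10 and 4.51 in PWK/PhJ, and 6.45, 7.02 and 2.9 in WSB/EiJ. All 12 libraries of those 4 strains lay below all libraries of C57BL/6J. All libraries of NZO/HlLtJ, NOD/ShiLtJ and A/J lay above all libraries of C57BL/6J. In the tests against C57BL/6J, Ifi47 was called only in NZO/HlLtJ, WSB/EiJ and PWK/PhJ.

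The 3 GBP genes were lowest in CAST/EiJ or WSB/EiJ. Gbp2, a guanylate-binding protein that coats the Toxoplasma vacuole, was highest in A/J at 10.2 ± 11.1 CPM and lowest in CAST/EiJ at 0.724 ± 0.324, a 14-fold distance. Without replicate 2 of A/J the highest strain was DBA/2J and the distance 7.84-fold. By library, Gbp2 measured 4.16, 23 and 3.32 CPM in A/J, 7.05, 5.67 and 4.3 in DBA/2J, 3.76, 7.76 and 5.47 in C57BL/6J, and 4.87, 6.05 and 2.99 in PWK/PhJ. Lower down it measured 3.95, 5.54 and 1.28 CPM in NZO/HlLtJ and 2.02, 3.66 and 3.23 in 129S1/SvImJ. In NOD/ShiLtJ, WSB/EiJ and CAST/EiJ it measured 2.73, 1.39 and 1.6, 1.94, 1.81 and 1.06, and 0.621, 1.09 and 0.464. All libraries of 129S1/SvImJ, NOD/ShiLtJ, WSB/EiJ and CAST/EiJ lay below all of C57BL/6J, and all 8 neighbouring pairs overlapped.

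Gbp3 stood between 2.44 and 11.3 CPM as a strain mean in 7 strains and below 1 CPM in the other 2. WSB/EiJ held 0.674, 0.928 and 0.506 CPM and CAST/EiJ 0.355, 0.574 and 1.29. DBA/2J was highest with 12.1, 14.3 and 7.59, a mean 16.1-fold that of WSB/EiJ. In between it measured 7.01, 11.1 and 8.37 CPM in C57BL/6J, 7.47, 10.1 and 6.01 in PWK/PhJ, and 6.37, 8.68 and 2.89 in NZO/HlLtJ. It measured 4.48, 19.6 and 4.19 CPM in A/J, 4.28, 2.25 and 2.37 in NOD/ShiLtJ, and 2.17, 2.6 and 2.54 in 129S1/SvImJ. All 6 libraries of WSB/EiJ and CAST/EiJ lay below the other 21, and the 6 of NOD/ShiLtJ and 129S1/SvImJ lay below all of C57BL/6J.

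Gbp7 was the most abundant GBP member per length and the one with the largest gap between 1 strain and the rest. CAST/EiJ held 0.355, 0.664 and 0.515 CPM, from 12, 22 and 10 counts, and the lowest of the other 24 libraries held 8.30 CPM. DBA/2J was highest with 29.6, 32.8 and 28.7 CPM, a mean 59.4-fold that of CAST/EiJ. The next strains measured 13.8, 52.7 and 21 CPM in A/J, 17.4, 25.5 and 25.1 in C57BL/6J, 21.8, 24.7 and 15.8 in NZO/HlLtJ, and 16.6, 15 and 15.8 in NOD/ShiLtJ. After them came 14.1, 14.7 and 10.8 CPM in 129S1/SvImJ, 12, 17.7 and 8.3 in PWK/PhJ, and 14.7, 11 and 8.56 in WSB/EiJ. DBA/2J lay wholly above C57BL/6J, and NOD/ShiLtJ, 129S1/SvImJ, WSB/EiJ and CAST/EiJ wholly below it.

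Across the 9 members, NZO/HlLtJ had the highest mean for 4 (Irgm1, Irgm2, Iigp1 and Ifi47), A/J for 3 and DBA/2J for 2. CAST/EiJ was lowest for 4 (Igtp, Iigp1, Gbp2 and Gbp7), WSB/EiJ for 4 (Irgm1, Tgtp1, Ifi47 and Gbp3) and 129S1/SvImJ for 1 (Irgm2). A/J and DBA/2J were each among the 3 highest strains for 8 members, and NZO/HlLtJ for 6. WSB/EiJ was among the 3 lowest for 8, 129S1/SvImJ for 7 and CAST/EiJ for 6. CAST/EiJ was not low throughout: it was the fifth of 9 strains for Irgm1 at 47.5 ± 8.74 CPM, with a higher mean than C57BL/6J. Without replicate 2, A/J had no highest mean and ranked from the third to the seventh place. Whether reads were aligned to the genome of C57BL/6J or of each strain is not given in the sources used here, and its part in the near-zero levels of CAST/EiJ and WSB/EiJ was not tested.

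Each strain was then tested against C57BL/6J with the edgeR quasi-likelihood test, with p-values adjusted over all 14482 genes. The 8 comparisons share the 3 C57BL/6J libraries and a single estimate of the spread. The call of a member was counted beside the share of all genes called in the same direction. Most calls were of lower levels, mainly in CAST/EiJ, WSB/EiJ and 129S1/SvImJ.

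CAST/EiJ had 5 of 9 members lower and 0 higher, beside 19.7% of all genes lower and 18.4% higher. The median log2 fold change of the members was -1.74, against -0.02 over all genes. Iigp1 had a log2 fold change of -8.62 ± 0.40 (SE, adjusted p = 1.69e-14), and Gbp7 of -5.46 ± 0.45 (SE, adjusted p = 8.04e-10). Gbp3 had -3.68 ± 0.56 (SE, adjusted p = 1.57e-05), Gbp2 -2.91 ± 0.63 (SE, adjusted p = 0.000775) and Igtp -1.74 ± 0.44 (SE, adjusted p = 0.00297). All 5 calls were kept when any of the 27 libraries was left out. Irgm1, at 0.34 ± 0.28 (SE, adjusted p = 0.349), and Irgm2, Tgtp1 and Ifi47 were not called.

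WSB/EiJ had 4 of 9 members lower and 0 higher, beside 6.76% and 6.88% of all genes, with a median log2 fold change of -1.23. Tgtp1 was at least 48.2-fold lower, computed against 3 counts per library (adjusted p = 0.0013 in edgeR). Gbp3 had a log2 fold change of -3.63 ± 0.56 (SE, adjusted p = 4.41e-05), Ifi47 of -1.33 ± 0.32 (SE, adjusted p = 0.00579) and Gbp2 of -1.81 ± 0.59 (SE, adjusted p = 0.0403). The Gbp2 call was lost, with an adjusted p of 0.072 to 0.158, without replicate 2 or 4 of C57BL/6J or without any single one of the WSB/EiJ libraries. All 9 members had a fold change below 0, against a median log2 fold change of 0 over all genes. Without replicate 2 of A/J, a library of neither strain that enters the shared spread, Irgm2 (adjusted p = 0.0284) and Gbp7 (adjusted p = 0.0071) were called too, 6 in all.

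129S1/SvImJ had 3 members lower and 0 higher, beside 11.7% and 9.2% of all genes, with a median of -0.93. They were Gbp3 at -1.85 ± 0.48 (SE, adjusted p = 0.00913), Igtp at -1.71 ± 0.43 (SE, adjusted p = 0.00768) and Irgm2 at -1.31 ± 0.46 (SE, adjusted p = 0.044). Irgm2 lost its call when any of 7 libraries was left out, with an adjusted p of 0.0507 to 0.141. Those libraries were the 3 of C57BL/6J, replicates 2 and 3 of 129S1/SvImJ, replicate 2 of DBA/2J and replicate 1 of NZO/HlLtJ. Leaving out replicate 2 of A/J added Tgtp1 (adjusted p = 0.00466) and Gbp7 (adjusted p = 0.0272). All 9 members had a fold change below 0 here as well, against a median of 0.01 over all genes. The members varied together within strains and share the C57BL/6J libraries, so like directions are not separate observations.

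NZO/HlLtJ was the only strain with members called higher: 2 of 9 higher and 0 lower, beside 13.2% and 16.2% of all genes. They were Ifi47 at 1.11 ± 0.31 (SE, adjusted p = 0.0102) and Irgm1 at 0.90 ± 0.28 (SE, adjusted p = 0.0189). Both calls were lost without replicate 2 of NZO/HlLtJ, the library with the highest levels of that strain, with adjusted p of 0.0603 and 0.116. The Irgm1 call was also lost without replicate 1 of NZO/HlLtJ (adjusted p = 0.0616) or replicate 4 of C57BL/6J (adjusted p = 0.0923). Irgm2 and Iigp1, whose means were also highest in NZO/HlLtJ, had log2 fold changes of 0.91 ± 0.45 (SE, adjusted p = 0.124) and 0.53 ± 0.27 (SE, adjusted p = 0.13) and were not called. The 3 GBP members had fold changes below 0 and were not called.

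In NOD/ShiLtJ 1 member was lower and 0 higher, beside 8.51% and 7.39% of all genes. It was Gbp3 at -1.57 ± 0.48 (SE, adjusted p = 0.0276). The call was lost, at an adjusted p of 0.0599 to 0.11, without replicate 2 or 4 of C57BL/6J or replicate 2 or 3 of NOD/ShiLtJ. Gbp2 stood at -1.56 ± 0.57 (SE, adjusted p = 0.0627) and was called by DESeq2 (adjusted p = 0.0345) and in edgeR without replicate 2 of A/J (adjusted p = 0.0134). In PWK/PhJ 1 member was lower and 0 higher, beside 13.7% and 12.5% of all genes. It was Ifi47 at -0.98 ± 0.32 (SE, adjusted p = 0.024), a call lost without replicate 2 of C57BL/6J or replicate 1 or 3 of PWK/PhJ (adjusted p of 0.0569, 0.0637 and 0.128). Without replicate 2 of A/J, 3 members were called in PWK/PhJ, since Tgtp1 (adjusted p = 0.00245) and Gbp7 (adjusted p = 0.0128) were added.

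In A/J, edgeR called 0 of 9 members in either direction, beside 3.81% of all genes higher and 4.03% lower. In DBA/2J it also called 0, beside 4.9% and 4.16%. Over all genes the median log2 fold change was 0 in A/J and 0.01 in DBA/2J. DESeq2 called 0 in both strains. At an unadjusted p under 0.05, 2 members passed in A/J and 1 in DBA/2J, all with higher levels. In A/J these were Tgtp1, with a log2 fold change of 1.84 ± 0.79 (SE, adjusted p = 0.186), and Igtp, at 1.04 ± 0.42 (SE, adjusted p = 0.158). In DBA/2J the member was Irgm1, at 0.64 ± 0.28 (SE, adjusted p = 0.177). All 9 members had a fold change above 0 in A/J and 8 of 9 in DBA/2J, where that of Gbp2 was 0.00 ± 0.54. The direction in A/J rested on replicate 2: without that library 7 of 9 members had a fold change below 0, among them Tgtp1 at -1.32 (adjusted p = 0.208 in edgeR), the median was -0.38, Igtp stood at 0.10 and 0 members were called. Without replicate 1 of A/J, Igtp (adjusted p = 0.0483) and Tgtp1 (adjusted p = 0.046) were called, with replicates 2 and 3 left in the strain.

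**Figure D2:**
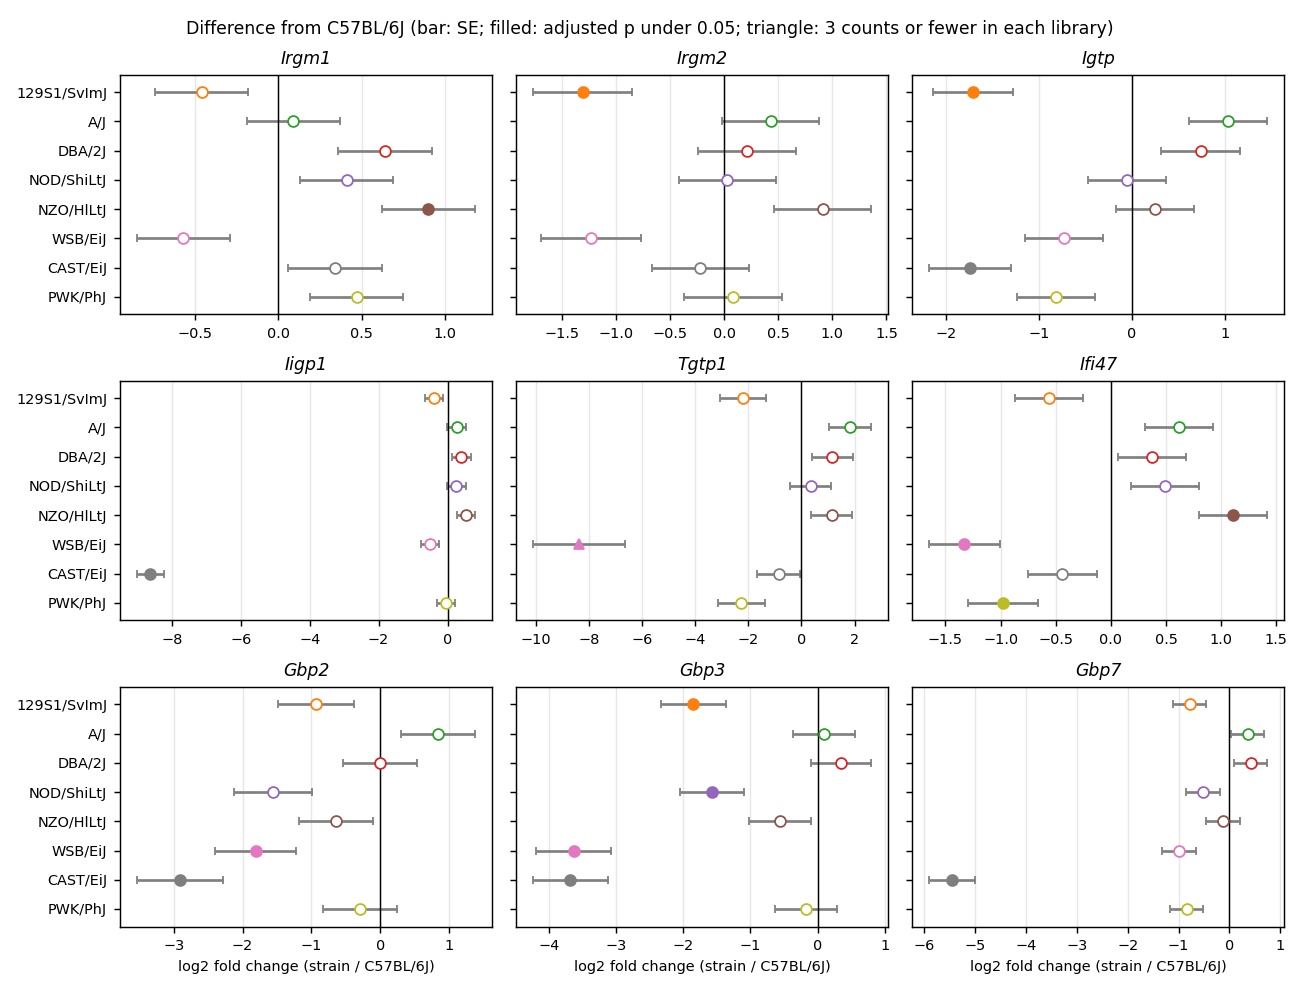
Log2 fold change of each of the 9 members in 8 strains against C57BL/6J, from the edgeR fit to all 27 libraries, with SE as bars and x axes that differ between panels; filled symbols have an adjusted p under 0.05. Iigp1 and Gbp7 stand apart in CAST/EiJ, at -8.62 and -5.46, and the triangle for Tgtp1 in WSB/EiJ marks a fitted value that is no bound, since each library held 3 counts or fewer.

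Within strains the members varied together, and 1 library stood far from the others. In replicate 2 of A/J all 9 members lay above the mean of their strain, by 1.32 on the log2 scale on average, and 7 of 9 had their highest level of all 27 libraries there. The exceptions were Irgm1 and Ifi47, highest in replicate 2 of NZO/HlLtJ. Against the mean of the other A/J libraries, this library held 25-fold the level of Tgtp1, 6.15-fold that of Gbp2, 4.53-fold that of Gbp3 and 3.77-fold that of Igtp. The ratio was 3.73 for Irgm2, 3.03 for Gbp7, 2.03 for Ifi47, 1.95 for Iigp1 and 1.85 for Irgm1. Of 11239 genes with a mean of at least 1 CPM in A/J, 230 (2.05%) were at least 2-fold higher in it.

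Many other interferon-regulated genes, and markers of antigen-presenting, lymphoid and erythroid cells, also had higher levels in that library. At least 2-fold higher were 8 of 13 interferon gamma targets (median log2 ratio 1.23), 11 of 18 type I interferon targets (1.16), 4 of 5 other GBP genes (1.62) and 6 of 10 other IRG genes (1.12). All 5 genes of antigen presentation by class II molecules were too (median 2.56), and their sum was 173.3 CPM against 24.1 and 43.1 in the other A/J libraries. The 10 T and NK cell genes summed to 4.26 CPM, the highest of the 27 libraries, against 0.685 and 1.62, and 2, 7 and 2 of the 10 were at 0 in replicates 2, 1 and 3. The Kupffer cell sum was 280.7 CPM against 131.5 and 188.7, with 2 of 10 genes at least 2-fold higher. Of 5 erythroid markers 4 were at least 2-fold higher (median 2.47), although their sum ran only from 14.4 to 18.2 CPM over the A/J libraries. Of 8 hepatocyte and 9 endothelial markers 0 were. Of 8 inflammasome genes 6 were (median 1.30), but of 12 interferon signalling genes only 2 (0.30) and of 6 interferon receptor genes 0 (-0.10). The lists include genes with means below 1 CPM, such as Casp4 and Nlrp3, to which the 2.05% above does not apply. The part of these cells in the levels of the members was not tested.

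Smaller shifts of the same kind were seen in other strains. In replicate 3 of NZO/HlLtJ all 9 members lay below the mean of their strain, by 0.78 on average, and in replicate 2 all 9 lay above it, by 0.55. In PWK/PhJ all 9 lay above the mean in replicate 2 (0.50) and below it in replicate 3 (-0.48). In replicate 4 of WSB/EiJ all 9 lay below it (-0.50). Marker sums of other cells moved with some of these shifts. In replicates 1, 2 and 3 of NZO/HlLtJ the class II sum was 46.8, 44.3 and 10.7 CPM and the Kupffer cell sum 73.0, 90.2 and 34.1. In replicates 2, 3 and 4 of WSB/EiJ the class II sum was 28.0, 32.6 and 11.6 CPM and the Kupffer cell sum 102.1, 135.8 and 71.9. In other strains the values were mixed. In replicate 4 of DBA/2J the Kupffer cell sum was 33.4 CPM, the lowest of the 27 libraries, and the class II sum 10.8, while the IRG sum of 572.1 CPM was the highest of that strain and the GBP sum of 40.5 CPM the lowest, against 48.8 and 52.8. In PWK/PhJ replicates 2 and 3 had class II sums of 126.8 and 127.7 CPM and Kupffer cell sums of 141.7 and 142.4. The part of these cells was not tested. Average deviations were smaller in DBA/2J (-0.05 to 0.09), 129S1/SvImJ (-0.20 to 0.16), C57BL/6J (-0.11 to 0.21), CAST/EiJ (-0.14 to 0.25) and NOD/ShiLtJ (-0.17 to 0.30), although single members spread more, such as Gbp3 over 0.87 on the log2 scale in DBA/2J.

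**Figure D3:**
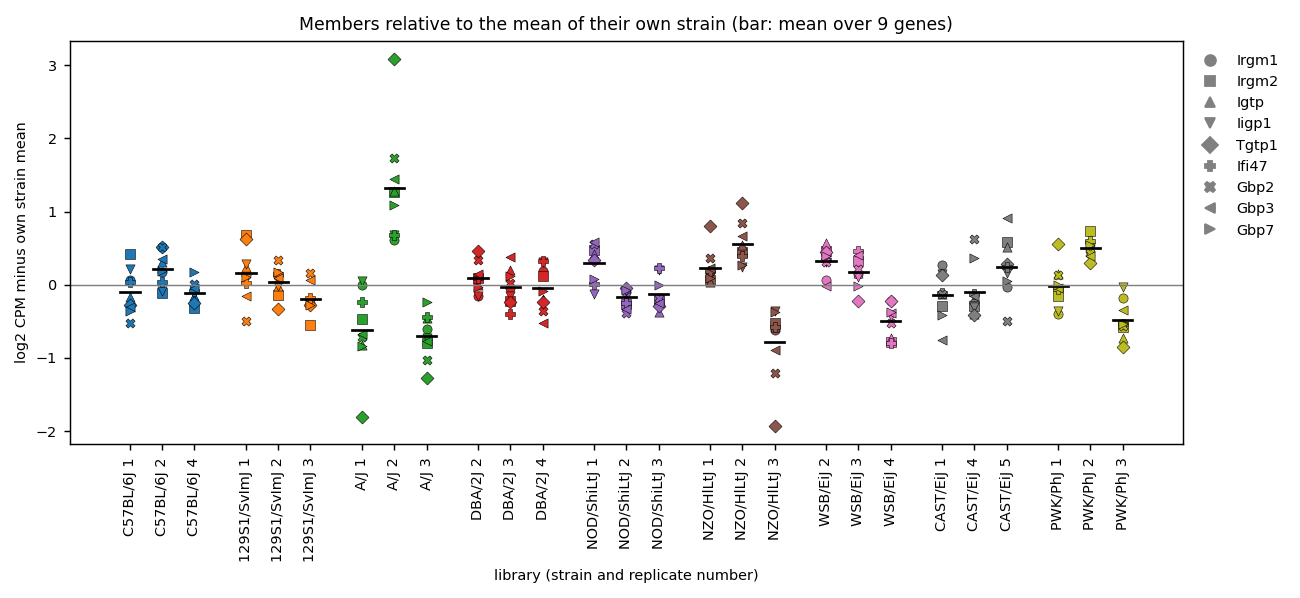
Deviation of each member from the mean of its own strain in log2 CPM, for the 27 libraries grouped by strain; symbols stand for genes and the bar for the mean over the 9 genes. All 9 symbols of replicate 2 of A/J lie above 0, with a mean of 1.32 and Tgtp1 uppermost, and all 9 of replicate 3 of NZO/HlLtJ lie below 0, with a mean of -0.78.

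As a description over the 27 deviations from strain means, all 36 pairs of members had a Pearson correlation above 0, from 0.45 to 0.87 with a median of 0.73. Over the 24 libraries without A/J all 36 were still above 0, from 0.10 to 0.82 with a median of 0.595. The highest value in each set was that of Irgm2 and Igtp. These genes overlap on the same strand and had non-whole counts in all 27 libraries, and the part of divided reads was not tested. No values for pairs of other genes are given here. The points share library and depth. Over the 9 strain means the pairs ran wider, from -0.01 for Irgm1 and Iigp1 to 0.98 for Iigp1 and Gbp7, which share the gap between CAST/EiJ and the rest, with a median of 0.625. For Irgm1 and Iigp1 Spearman's rho over the strain means was 0.70, while CAST/EiJ was the fifth of 9 for the former and last for the latter.

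Other genes of the 2 families, from a list of 11 IRG and 7 GBP genes, also differed between strains. All 10 of the other IRG genes that passed the filter were called among strains, and all 5 of the other GBP genes in the table, beside 74.2% of all genes. Their median strain ranges were 3.50 and 3.55 in log2(CPM + 0.5), beside 2.54 for the 6 IRG members and 3.30 for the 3 GBP members. Irgc1 fell below the filter, and Gbp5 and Gbp10 were not analysed here.

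Gm12185 was high in CAST/EiJ, where most members were low. The IRG gene Gm12185 measured 22, 26.9 and 39.1 CPM in CAST/EiJ and 2.75, 3.47 and 0.83 in PWK/PhJ, and 0 in all 3 libraries of 129S1/SvImJ, at least 318-fold below CAST/EiJ. Outside CAST/EiJ and PWK/PhJ no library held more than 0.468 CPM of this gene. Gm12185 overlaps Tgtp1 on the minus strand and had non-whole counts in 16 libraries, among them all of CAST/EiJ. F830016B08Rik had them in 20 and Tgtp2 in 22, so the levels of these genes as single genes are uncertain. Gm4951, the IRG gene that shares the most sequence with Iigp1, was highest in A/J at 74.2 CPM as a mean and lowest in CAST/EiJ at 0.207, with 0.148, 0.423 and 0.0515 CPM by library. In NZO/HlLtJ, where Iigp1 was highest, Gm4951 held only 3.57, 4.73 and 4.97 CPM. F830016B08Rik ranged from 16.9 CPM in A/J to 0.211 in CAST/EiJ, an 80.2-fold distance, and Tgtp2 from 8.58 in NZO/HlLtJ to 0 in CAST/EiJ, at least 77-fold.

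Among the other GBP genes, Gbp11 had the widest range, from 139.8 CPM in A/J to 1.64 in 129S1/SvImJ, an 85.4-fold distance. Its libraries held 113, 207 and 99.3 CPM in A/J, 83.1, 87.9 and 104 in DBA/2J, and 82.1, 48.8 and 26 in WSB/EiJ, against 4.96, 7.68 and 6.77 in C57BL/6J. WSB/EiJ, low for Gbp2, Gbp3 and Tgtp1, was therefore wholly above C57BL/6J for Gbp11. Gbp2b, Gbp4 and Gbp8 were also highest in A/J, at 9.48, 7.30 and 2.66 CPM, and lowest in CAST/EiJ (0.318), 129S1/SvImJ (0.164) and 129S1/SvImJ (0.132). Those A/J means rested on replicate 2, at 22.7, 15.5 and 4.63 CPM. Without it A/J held 2.85, 3.18 and 1.68 CPM, so that PWK/PhJ was highest for Gbp4 at 4.32, A/J and C57BL/6J had the same mean of Gbp2b, and A/J was still highest for Gbp8. Gbp11 was still highest in A/J, 64.9-fold over 129S1/SvImJ. Gbp11 had non-whole counts in all 27 libraries, Gbp8 in 26 and Gbp4 in 25, so their levels as single genes are uncertain.

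Genes of the interferon pathway were detected from receptor to transcription factor, while those of its ligands scarcely were. Ifng, which encodes interferon gamma, had 4 counts in the 27 libraries together, and Ifnb1 and Ifna4, 2 type I interferon genes, had 0. All 6 receptor genes tested were called among strains, beside 74.2% of all genes. Ifngr1 and Ifngr2, the subunits of the interferon gamma receptor, were highest in A/J (19.6 and 24.1 CPM) and lowest in CAST/EiJ (6.30 and 8.51). Ifnar1 of the type I receptor had the same highest and lowest strain (57.6 and 23.4 CPM), and Il10rb ranged from 5.92 in A/J to 2.48 in WSB/EiJ, with PWK/PhJ highest at 5.82 without replicate 2 of A/J.

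Of 12 signalling genes tested, 8 were called, or 66.7%, beside 74.2% of all genes, with a median range of 0.82, against 0.945 over all genes. Usp18, which dampens type I signalling, ranged from 14.6 CPM in DBA/2J to 0.587 in CAST/EiJ, Irf9 from 27.9 to 8.74 in the same strains, and Irf8 from 4.09 in PWK/PhJ to 1.03 in CAST/EiJ. Irf1, a factor induced by interferon gamma and needed for the induction of several GBP genes, was not called, at 19.6 CPM in DBA/2J and 13.1 in 129S1/SvImJ (adjusted p = 0.235 in edgeR). Jak2, Irf2 and Socs3 were not called either.

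Of the targets of the same signals, all 13 interferon gamma targets tested were called, with a median range of 1.65, and all 18 type I targets, with 2.91, beside 74.2% of all genes called and their median range of 0.945. The chemokine gene Cxcl9 ranged from 19.1 CPM in A/J to 1.72 in CAST/EiJ, with 5.34, 43.5 and 8.38 CPM in the A/J libraries. Without replicate 2 of A/J, DBA/2J was highest for Cxcl9 at 14.6 CPM. Serpina3g, Psmb8 and Tap1 ranged 11.8-fold, 5.56-fold and 4-fold, with CAST/EiJ highest for the first and lowest for the other two. Mx2, an antiviral GTPase, ranged from 37.2 CPM in PWK/PhJ to 0.0743 in NZO/HlLtJ. Ifi44, Irf7 and Rsad2 were highest in DBA/2J and lowest in CAST/EiJ. Irf7 was 22.2-fold and Rsad2 20.2-fold lower there, and Ifi44 at least 72.3-fold.

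Genes that work beside the 2 families had smaller median ranges. Of 11 genes of the autophagy conjugation machinery, which is needed to place IRG and GBP proteins on vacuoles, 9 were called (81.8%, beside 74.2% of all genes), with a median range of 0.96. The widest were Atg7 (39.0 CPM in NZO/HlLtJ, 14.3 in PWK/PhJ), Atg10 (4.05 in CAST/EiJ, 1.30 in WSB/EiJ), Gabarapl1 (304.1 in 129S1/SvImJ, 129 in NZO/HlLtJ) and Map1lc3a (19.4 in 129S1/SvImJ, 8.62 in DBA/2J). Of 8 inflammasome genes 5 were called (62.5%, beside the same 74.2%), with a median range of 0.98. Gsdmd, the pore-forming protein of the pathway, ranged from 28 CPM in DBA/2J to 5.29 in CAST/EiJ. Il1b ranged from 1.31 CPM in C57BL/6J to 0.147 in DBA/2J, and Il18 from 4.84 in 129S1/SvImJ to 2.18 in WSB/EiJ. The inflammasome count fell to 3 with the replicate number as a block.

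Across the 9 strain means, the genes most like the mean of the 6 IRG members included Adar, Ly6e, Cdc20 and Mki67, with Pearson correlations of 0.947, 0.946, 0.946 and 0.94 among 11339 genes with a mean of at least 1 CPM. Adar and Ly6e are interferon-inducible, and Cdc20 and Mki67 belong to the cell cycle. Within strains, over the 27 deviations, these genes had correlations of 0.59, 0.47, 0.15 and 0.57. Irf9 had rank 15 (0.906, and 0.83 within strains) and Irf1 had rank 342 (0.69 and 0.61).

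For the mean of the 3 GBP members the closest genes were Pramef8, Gm29562, Gm37614, Ddx60 and Fam198a, at 0.961, 0.952, 0.952, 0.946 and 0.945. Within strains 4 of these 5 had no such likeness, with correlations of 0.02, -0.01, -0.01 and -0.35, while Ddx60, an interferon-inducible helicase gene, had 0.61. With 9 points that share the strain, correlations of this size are a description of which genes have a like order of strains. Gm29562 and Gm37614 had non-whole counts in 27 and 26 libraries.

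Markers of other liver cells are given beside these results by strain and library. By strain, the Kupffer cell sum was 236.2 ± 34.3 CPM in C57BL/6J, 232.8 ± 157 in PWK/PhJ, 200.3 ± 75.3 in A/J, 114.9 ± 76.9 in DBA/2J, 103.3 ± 32 in WSB/EiJ, 74.7 ± 5.25 in NOD/ShiLtJ, 65.8 ± 28.7 in NZO/HlLtJ, 62.6 ± 5.86 in CAST/EiJ and 57.3 ± 24.8 in 129S1/SvImJ. The 6 IRG members summed to 556.9 ± 156 CPM in NZO/HlLtJ, 520.2 ± 327 in A/J, 516.3 ± 48.4 in DBA/2J, 420.8 ± 30.3 in NOD/ShiLtJ, 365.9 ± 38.7 in C57BL/6J, 334.4 ± 102 in PWK/PhJ, 229.4 ± 63.7 in WSB/EiJ, 225.6 ± 43.9 in 129S1/SvImJ and 115.1 ± 22.9 in CAST/EiJ. The IRG sums of A/J were 382, 893 and 286 CPM in replicates 1, 2 and 3, so its mean lay above that of C57BL/6J only with replicate 2. CAST/EiJ and 129S1/SvImJ were low in both the IRG and the Kupffer cell sums. NZO/HlLtJ, DBA/2J and NOD/ShiLtJ had higher IRG sums than C57BL/6J with lower Kupffer cell sums. The 3 GBP members summed to 48.7 ± 40.4 CPM in A/J, 47.4 ± 6.26 in DBA/2J, 37.2 ± 8.22 in C57BL/6J, 30.3 ± 9.64 in NZO/HlLtJ, 25.1 ± 8.29 in PWK/PhJ, 20.7 ± 2.65 in NOD/ShiLtJ, 18.6 ± 2.23 in 129S1/SvImJ, 13.7 ± 3.6 in WSB/EiJ and 1.98 ± 0.559 in CAST/EiJ. The GBP sums of NZO/HlLtJ and NOD/ShiLtJ were thus below that of C57BL/6J, as were their Kupffer cell sums, and that of DBA/2J was above it. The GBP sum of A/J rested on replicate 2, at 95.3 CPM. Its replicates 1 and 3, at 22.4 and 28.5 CPM, lay below the C57BL/6J mean. The class II sum was highest in PWK/PhJ at 179.4 ± 90.3 CPM and lowest in NOD/ShiLtJ at 10.6 ± 2.64, and in between ran from 24 ± 11.1 in WSB/EiJ to 82.6 ± 12.9 in C57BL/6J. Within strains, PWK/PhJ replicate 1 had the highest Kupffer cell sum of any library, 414.3 CPM, and an IRG sum of 269 CPM, against 452 in replicate 2. In NZO/HlLtJ replicate 3 had the lowest of both sums, 34.1 and 388 CPM, and replicate 2 the highest, 90.2 and 696 CPM. The sum of the T and NK cell genes was 0.431 ± 0.0915 CPM in NZO/HlLtJ, 0.300 ± 0.0819 in CAST/EiJ and 2.69 ± 0.306 in C57BL/6J. Of the 10 Kupffer cell markers 0 were at 0 counts in any library, and up to 8 of the 10 T and NK cell genes were. The part of these cells in the strain differences was not tested.

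**Figure D4:**
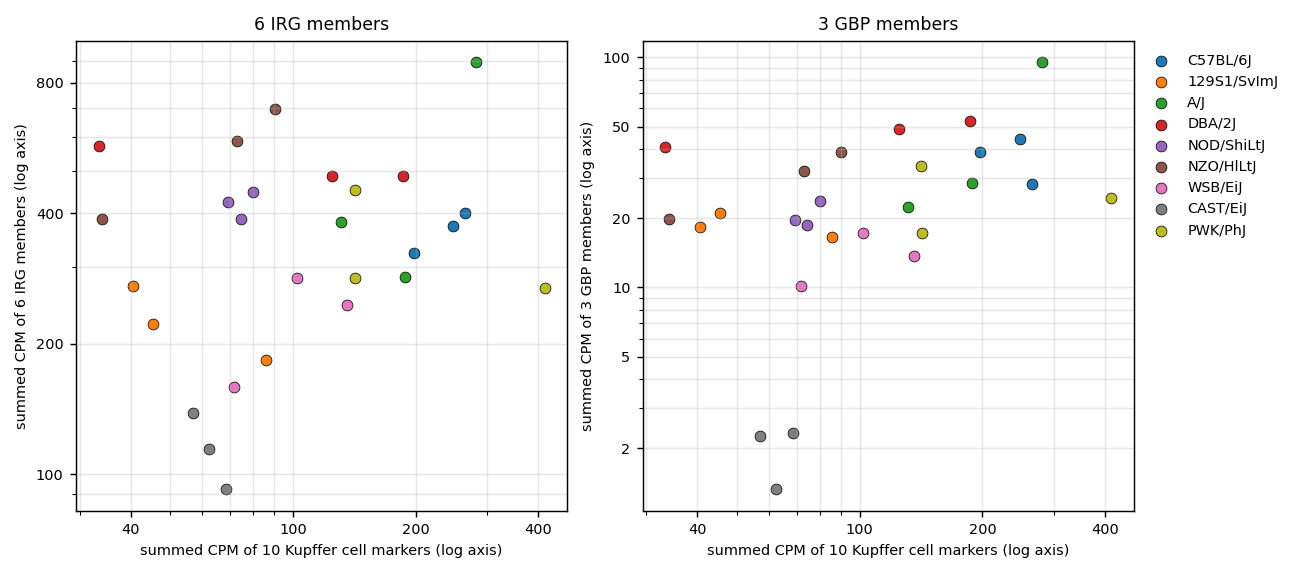
Summed CPM of the 6 IRG members (left) and the 3 GBP members (right) against the summed CPM of 10 Kupffer cell markers, on log axes, with a point for each of the 27 libraries coloured by strain. Replicate 2 of A/J lies highest in both panels at a Kupffer cell sum of 280.7 CPM, and the CAST/EiJ libraries lie lowest at 56.8 to 68.5 CPM.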

How the data were processed

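Hepatocyte RNA of 9 strains was measured by sequencing polyadenylated RNA, per the labels' protocols. What the authors deposited was 1 table holding estimated counts for each Ensembl gene, unscaled. The build was GRCm38/mm10 and FastQC 0.11.5 and DESeq2 were used, per the submitters' processing notes. The aligner, the counting program, the annotation, and whether reads were aligned to the genome of C57BL/6J or of each strain are not given in the sources used here, and the choice can change the counts of divergent strains. The library kit is not stated to keep strand, so overlapping genes are uncertain.

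Non-whole estimated counts, as deposited, were rounded. Symbols came from GENCODE M21, which named 42462 of 43346 genes, and genes without a symbol held 0.0579% of the counts. Of all genes, 18517 were at 0 in every library. filterByExpr with strain as the group left 14482 genes. A single quasi-likelihood model was fitted to all 27 libraries using edgeR 4.0.16 and limma 3.58.1 (R 4.3.3), with TMM factors of 0.722 to 1.23. All strains were tested together and each of the other 8 against C57BL/6J, with Benjamini-Hochberg adjustment over all tested genes and a threshold of 0.05. Ranges used log2(CPM + 0.5). Where all libraries of the lower strain held 3 counts or fewer, the fold was computed against 3 counts per library, a floor that covers counting error only. The model was tested on simulated data.

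All members were described. Of each other list, the rule named up to 4 called genes with the largest range of strain means and a highest mean of at least 1 CPM, plus Irf1 and Tgtp2, and the 5 genes outside both families most like each family's mean; some genes under this rule are not reported here. Signalling genes named as not called were picked out after their values were seen. The members, lists and tests were chosen with earlier results of these data known. Alternatives were DESeq2 1.42.0, other filters and pseudocounts, the replicate number as a block, counts without rounding, Tgtp1 and Tgtp2 summed, and leaving out each library. Sequences were read with Biopython 1.88 and figures drawn with matplotlib 3.10.9.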

Additional observations from a re-analysis of the deposited data

How the results depend on the processing

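No member called against C57BL/6J changed direction under an alternative run. With no filter on low counts, edgeR called 5 members in 129S1/SvImJ (3 with the filter), 1 in A/J (0), 2 in NOD/ShiLtJ (1) and 3 in PWK/PhJ (1). It also called 6 in WSB/EiJ (4) and 3 in NZO/HlLtJ (2). DESeq2 called 2 in NOD/ShiLtJ and 5 in WSB/EiJ, where Gbp7 was added. When each library was left out in turn, the calls were 2 to 5 in 129S1/SvImJ, 0 to 2 in A/J, 0 to 0 in DBA/2J, 0 to 2 in NOD/ShiLtJ, 0 to 2 in NZO/HlLtJ, 3 to 6 in WSB/EiJ, 5 to 5 in CAST/EiJ and 0 to 3 in PWK/PhJ. Of the signalling genes 8 to 10 and of the autophagy genes 7 to 11 were called with a library left out. Of the inflammasome genes 3 were called with a mean of at least 10 counts and 3 with the replicate block, and 3 to 5 with a library left out. With a pseudocount of 2 in place of 0.5 the ranges of strain means shrank to 6.85 for Iigp1, 3.59 for Tgtp1, 3.69 for Gbp7, 2.30 for Gbp3 and 2.16 for Gbp2. The cause of these changes was not tested.

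Under the replicate block, 5 members were called in WSB/EiJ, where Gbp7 was added, 5 in CAST/EiJ, 3 in 129S1/SvImJ, 2 in NZO/HlLtJ, 1 in PWK/PhJ, 1 in NOD/ShiLtJ and 0 in both A/J and DBA/2J. The labels do not say what the numbers mean. Over 76 pairs of libraries with the same number the correlation of deviations from strain means ran from -0.29 to 0.28. The median was 0.02, beside 0 over pairs with different numbers, and 17 of the 76 lay above 0.1. Of 27 libraries 7 correlated best with a library of their own number. Whether libraries of the same number share a preparation cannot be told from these values. Low counts limit the CAST/EiJ levels of Iigp1, Gbp2, Gbp3 and Gbp7 and the WSB/EiJ levels of Tgtp1 and Gbp3.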
